A study of Mus musculus with 12 samples.

Results

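Goblet cell and mucus genes are described here by 9 members, Muc2, Muc1, Muc13, Tff3, Agr2, Fcgbp, Zg16, Spink4 and Spdef, in the cecum of mice after cauterization of its wall. They were picked by name from the array's gene names, and every probe that carried 1 of the names was kept. This gave 12 probes of 56605, and 9 genes of 37074. Muc2, Muc13 and Fcgbp had a pair of probes each, and the probe with the higher mean over all arrays is called the leading probe. The rule uses names only and no measured value, but the members were chosen with earlier results of these data known.

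RNA from cecum tissue was measured on 12 one-colour oligonucleotide arrays, 3 for each of 4 groups. The groups were a sham operation, taken at 0 h, and cecum at 3, 12 or 72 h after burning with bipolar forceps, a procedure that leads to abdominal adhesions. The array labels name no strain or genetic change and give all 12 as male. The study kept C57BL/6 mice and a Wt1GFPCre line, and which of them gave the array samples, and at what age, is not given in the sources used here. The sham mice were operated on but not burned, so the operation is shared by all groups while the time after it is not. The study describes the 3 arrays of a group as biological replicates. The comparisons ask which transcripts had moved from the sham level at each time.

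Goblet cells are the secretory cells of the intestinal epithelium that make the mucus gel. Their main product is the gel-forming mucin MUC2, which is folded in the endoplasmic reticulum, decorated with O-linked sugars, packed into granules and released into the lumen together with smaller proteins that bind or stabilize the gel. Other mucins, among them MUC1 and MUC13, stay anchored in the apical membrane of epithelial cells and are not restricted to goblet cells. In the cecum, as in the colon, mucus keeps the bacteria of the lumen away from the epithelium.

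The probes behind the values are 60 bases long. Shown are 5 of them, for a membrane mucin, the gel mucin, a gel-bound protein, a lectin and a peptide of the granule. For Muc2 the second probe is shown, while the leading probe, which stands for the gene below, is not. They are written in lower case with no part marked. The Muc1 and Spink4 probes span 968 and 2125 bases of genome, so each of them bridges an intron. Positions are those that the array's annotation gives on mm9, and exon or untranslated region was not assigned because no mm9 annotation was used here.
Muc1, chr3:89036007-89036974, plus strand: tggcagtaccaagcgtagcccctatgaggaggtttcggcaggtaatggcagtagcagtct
Muc2, second probe, chr7:148883009-148883068, plus strand: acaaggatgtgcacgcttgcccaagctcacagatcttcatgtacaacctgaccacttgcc
Fcgbp, leading probe, chr7:28905517-28905576, plus strand: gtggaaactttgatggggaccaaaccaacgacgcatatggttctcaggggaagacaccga
Zg16, chr7:134193837-134193896, minus strand: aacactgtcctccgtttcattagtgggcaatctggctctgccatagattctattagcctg
Spink4, chr4:40876206-40878330, plus strand: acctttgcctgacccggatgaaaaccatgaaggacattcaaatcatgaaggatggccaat

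Sequence upstream of the annotated start was matched for 6 of the 9 genes in RefSeq on GRCm38.p6, namely Muc1, Muc2, Muc13, Agr2, Fcgbp and Spdef, with 2 starts for Muc13, and it was not matched for Tff3, Zg16 and Spink4. The 250 bases before the start are shown for Muc2, whose level stayed near that of the sham group, and for Muc1, Muc13 and Spdef, which had a called change. Agr2 and Fcgbp had a called change too, and their windows and the second start of Muc13 are not shown. Capitals mark the motifs that were searched on both strands. They were the STAT motif TTCNNNGAA, the TATA motif TATAAA and the GC box GGGCGG.
Muc2, chr7:141690090-141690339, plus strand: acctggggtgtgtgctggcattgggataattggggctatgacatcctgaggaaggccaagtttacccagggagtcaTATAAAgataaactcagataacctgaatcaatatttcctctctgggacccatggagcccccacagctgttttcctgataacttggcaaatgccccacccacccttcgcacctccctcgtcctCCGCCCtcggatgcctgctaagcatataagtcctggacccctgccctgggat
Muc1, chr3:89228806-89229055, plus strand: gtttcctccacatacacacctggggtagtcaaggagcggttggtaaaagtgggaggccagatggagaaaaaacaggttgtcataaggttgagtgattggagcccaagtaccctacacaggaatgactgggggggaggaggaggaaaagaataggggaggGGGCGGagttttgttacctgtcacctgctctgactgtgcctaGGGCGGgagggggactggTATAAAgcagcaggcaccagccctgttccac
Muc13, first start, chr16:33793787-33794036, plus strand: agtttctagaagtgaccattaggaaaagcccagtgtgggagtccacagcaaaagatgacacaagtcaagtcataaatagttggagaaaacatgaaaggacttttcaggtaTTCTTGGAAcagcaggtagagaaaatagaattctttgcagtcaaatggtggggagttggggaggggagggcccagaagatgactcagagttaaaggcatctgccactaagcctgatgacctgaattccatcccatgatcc
Spdef, chr17:27728952-27729201, minus strand: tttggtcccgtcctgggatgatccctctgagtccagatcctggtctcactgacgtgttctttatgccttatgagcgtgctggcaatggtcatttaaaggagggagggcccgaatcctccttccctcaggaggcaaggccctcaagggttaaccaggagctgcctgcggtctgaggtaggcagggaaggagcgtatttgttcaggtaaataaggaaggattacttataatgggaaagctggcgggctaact

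Muc1 held a TATA motif that began 31 bases before its start and GC boxes that began 91 and 49 bases before it. Muc2 held a TATA motif that began 174 bases before its start and a GC box, read on the other strand, 52 bases before it. The first start of Muc13 held a STAT motif that began 140 bases before it. The second start of Muc13 held none of the motifs, and neither did Agr2, Fcgbp or Spdef. Of all 32851 promoter windows of this length, 7.02% held the STAT motif, 12.4% the TATA motif and 32.7% the GC box. These are matches of letters only.

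Levels below are log2 of the processed signal minus the 75th percentile of the same array, so 0 is the level of the probe at that percentile. A fold change is a difference of such levels. A probe was called, and is said to have risen or fallen, when it changed over 2-fold with an adjusted p under 0.05 in limma, over all 56605 probes. Probes differ in their affinity, so levels are compared between groups for 1 probe and never between probes.

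Some facts of the arrays bear on the values. Between 60.2% and 65.2% of probes were well above background on an array, and no probe was saturated. All mice were labelled male, but Xist, which is transcribed from an inactive X chromosome, was well above background on 12 arrays, and the Y-linked genes Ddx3y and Eif2s3y were so on 0 arrays. All 4 groups had the same pattern, so it does not divide them. The sham and 3 h arrays and replicates 1 and 2 of the 12 h group were on slide 1, and replicate 3 of the 12 h group and the 72 h group were on slide 2. The 72 h group can thus be told apart from the slide only through 1 array. For some genes its values are also given with the slide as a block. No such values are given for the markers of other cell types, so their 72 h changes cannot be told apart from the slide here.

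The label of goblet cell genes was checked first. All 12 arrays measured 11 of the 12 probes well above background, and 11 arrays measured that of Muc1. The further goblet cell markers Clca1 and Atoh1 were also above background in all 3 arrays of each group.

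Against sham, 2 of the 12 probes rose and 1 fell at 3 h, where 2.96% of all probes rose and 4.37% fell. At 12 h 2 rose and 0 fell, against 3.85% and 5.08% of all probes. At 72 h 2 rose and 0 fell, against 4.13% and 4.13%. Muc1 rose at all 3 times, the transcription factor gene Spdef rose at 3 h, the second Muc13 probe rose at 12 h and Agr2 rose at 72 h. Muc2, Tff3, Zg16 and Spink4 were not called at any time. By the leading probe, 2, 1 and 2 of the 9 genes were called at 3, 12 and 72 h, all of them higher. Of all 37074 genes, 2732, 3360 and 3282 were called in either direction at these times. These totals are also the background for the counts of called genes in the marker lists and other lists below. The median log2 fold change of the 9 genes was 0.38, 0.11 and -0.12, beside 0.08, -0.01 and -0.14 over all genes.

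**Figure D1:**
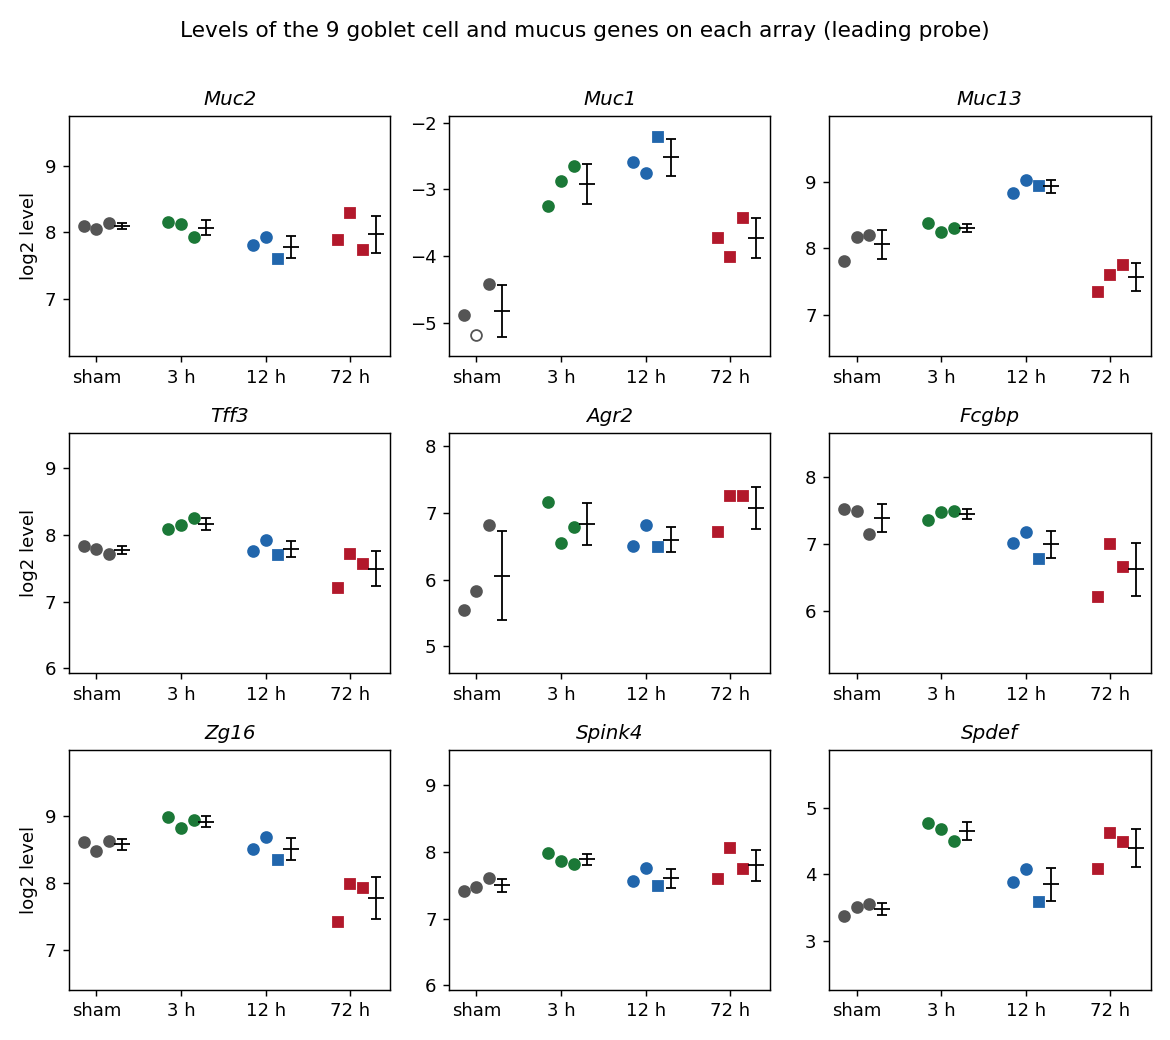
Log2 level of the leading probe of each gene on every array (y axis, each panel spanning the same range of log2 units) by group (x axis); circles are arrays on slide 1, squares arrays on slide 2, an open symbol is not well above background, and bars give the mean ± SD of 3 arrays. Muc1 moves from a mean of -4.83 in sham to -2.52 at 12 h, Zg16 and Fcgbp lie lowest at 72 h, and the Muc2 means stay between 7.78 and 8.09.

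Muc2 encodes the mucin that forms the gel and was not called at any time. Its leading probe was at 8.09, 8.05 and 8.14 in sham and at 8.15, 8.12 and 7.94 at 3 h. The 12 h arrays read 7.81, 7.92 and 7.6, and the 72 h arrays 7.88, 8.28 and 7.74. The 12 h arrays all lay below the sham arrays, while the 72 h arrays lay on both sides of them. The log2 fold change was -0.02 ± 0.15 (SE), -0.31 ± 0.15 and -0.12 ± 0.15 for 3, 12 and 72 h, with adjusted p of 0.923, 0.179 and 0.598. The 95% confidence intervals ran from -0.36 to 0.31, from -0.65 to 0.02 and from -0.46 to 0.21, so none of them reached a 2-fold change. At 72 h the estimate was 0.14 after quantile normalization and also 0.14 with the slide as a block, and neither was called.

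The second Muc2 probe, which lies far upstream in the gene, was much dimmer but measured on all arrays. Its level was 0.62 to 0.91 in sham, 0.10 to 0.68 at 3 h, 0.07 to 0.40 at 12 h and 0.16 to 0.99 at 72 h. Its log2 fold changes of -0.27, -0.49 and -0.25 had the sign of the leading probe at all 3 times and were not called.

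Muc1, a membrane mucin with a cytoplasmic tail that can signal, was the member called at all 3 times. It was at -4.88, -5.18 and -4.42 on the sham arrays, where 2 of 3 arrays were well above background. It was at -3.24, -2.87 and -2.66 at 3 h, at -2.59, -2.75 and -2.22 at 12 h, and at -3.73, -4.02 and -3.43 at 72 h. Every array after cauterization lay above every sham array.

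The log2 fold change of Muc1 was 1.90 ± 0.24 (SE) at 3 h, with an adjusted p of 0.000713, which is 3.74-fold. It was 2.31 ± 0.24 at 12 h, with an adjusted p of 0.000176, which is 4.95-fold. At 72 h it was 1.10 ± 0.24, with an adjusted p of 0.0109, which is 2.14-fold. This last rise was 0.65 with the slide as a block, with an adjusted p of 0.402, and it was under 2-fold without sham replicate 2 (0.92) or without 72 h replicate 3 (0.95). The probe is dim: the raw processed signal was 5.9 to 9.1 units in sham and 31.9 to 47.3 units at 12 h, against a 75th percentile of 179.5 to 260.8 units on the arrays. A background correction that adds an offset of 50 units brought the log2 fold changes to 0.44, 0.50 and -0.0016, none of them called.

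From 3 h to 12 h the Muc1 arrays overlapped, with a log2 difference of 0.40 and an adjusted p of 0.325. From 12 h to 72 h Muc1 fell by 1.21 ± 0.24 (SE) on the log2 scale, with an adjusted p of 0.00801. The slide block gave -1.51 for this difference, with an adjusted p of 0.0408. After the background correction with the offset of 50 units it was -0.50, with an adjusted p of 0.000689, which is under 2-fold and not called. On slide 2 alone, the 12 h array was at -2.22 and the 3 arrays of 72 h were at or below -3.43.

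Muc13, the other membrane mucin, is abundant on the surface of intestinal epithelial cells. Its leading probe was at 7.81, 8.17 and 8.20 in sham and at 8.37, 8.24 and 8.30 at 3 h. The 12 h arrays read 8.83, 9.03 and 8.94, and the 72 h arrays 7.34, 7.61 and 7.75. The 12 h arrays were the highest and the 72 h arrays the lowest, and neither overlapped any other group. Against sham the log2 fold change was 0.24, 0.87 and -0.49 at 3, 12 and 72 h. The adjusted p was 0.246, 0.00199 and 0.0349, so 12 and 72 h passed the p threshold without reaching 2-fold. With the slide as a block the 72 h value against sham was -0.51, with an adjusted p of 0.313.

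The second Muc13 probe, 446 bases from the leading one on mm9, moved in the same way. It was at 5.40, 5.72 and 5.78 in sham, 6.15, 5.97 and 6.14 at 3 h, and 6.83, 6.98 and 6.83 at 12 h. The 72 h arrays read 4.88, 5.26 and 5.5. At 12 h it rose by 1.25 ± 0.16 (SE) on the log2 scale, which is 2.38-fold, with an adjusted p of 0.000609. The mean of both probes was 1.06 above sham at 12 h, with an adjusted p of 0.000968.

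Between 12 and 72 h both Muc13 probes fell. The leading probe fell by 1.36 ± 0.14 (SE) on the log2 scale, with an adjusted p of 0.00037, and the second probe by 1.67 ± 0.16, with an adjusted p of 0.000295. With the slide as a block the differences were -1.37 and -1.62, with adjusted p of 0.0109 and 0.0104. Between 12 and 72 h 0 of the 12 member probes rose and 3 fell, both of Muc13 and that of Muc1, where 4.09% of all probes rose and 2.99% fell.

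Between 3 and 12 h 0 member probes rose and 0 fell by these thresholds, where 1.86% of all probes rose and 1.42% fell. With adjusted p under 0.05 and no limit on the fold, 3 probes passed, namely both of Muc13, by 0.63 and 0.79, and Spdef, by -0.80. At an unadjusted p under 0.05 and no limit on the fold there were 7, of which 3 were higher and 4 lower. The shares of all probes given above belong to the called probes. Shares at these looser limits were not set beside these counts, so the counts are descriptions only. After quantile normalization 1 member probe was called, the second of Muc13.

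Tff3, the trefoil peptide that goblet cells secrete with the mucin and that takes part in epithelial repair, was at 7.84, 7.78 and 7.71 in sham and at 8.09, 8.15 and 8.26 at 3 h. At 12 h it was at 7.75, 7.92 and 7.69, and at 72 h at 7.20, 7.71 and 7.56. The 3 h arrays lay above all others, and the 72 h arrays at or below the lowest sham array. The log2 fold changes were 0.38 ± 0.14 (SE), 0.01 ± 0.14 and -0.29 ± 0.14, with adjusted p of 0.0804, 0.974 and 0.179, and none was called. The 12 h value was -0.05 when the 75th percentile was taken over probes above background.

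Agr2, a disulfide isomerase of the endoplasmic reticulum that MUC2 needs for its folding, had the widest spread of the 9 genes in sham. It was at 5.54, 5.82 and 6.81 there, and at 7.17, 6.54 and 6.78 at 3 h, at 6.50, 6.81 and 6.49 at 12 h and at 6.71, 7.26 and 7.26 at 72 h. Sham replicate 3 lay within the range of the later groups, and the other sham arrays lay below all later arrays. The log2 fold change was 0.77 ± 0.31 (SE) at 3 h and 0.54 ± 0.31 at 12 h, with adjusted p of 0.112 and 0.269.

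At 72 h Agr2 rose by 1.01 ± 0.31 (SE) on the log2 scale, which is 2.02-fold, with an adjusted p of 0.0434. This call was at the edge of both thresholds. The adjusted p was 0.294 with the slide as a block, at a log2 fold change of 1.18. When each of the 12 arrays was left out in turn, the call was kept only without sham replicate 3, 3 h replicate 1 or 72 h replicate 1, and leaving out sham replicate 1 gave 0.76 with an adjusted p of 0.14. Without sham replicate 3 the 3 h value was called, at 1.15 with an adjusted p of 0.011.

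Fcgbp, a large protein of the mucus gel that binds to MUC2, had a leading probe at 7.53, 7.50 and 7.15 in sham and at 7.36, 7.48 and 7.49 at 3 h. It was at 7.02, 7.18 and 6.78 at 12 h and at 6.20, 7.0 and 6.66 at 72 h. The 72 h arrays all lay below the sham arrays. The log2 fold change at 3 h was 0.05, and -0.22 after quantile normalization. At 12 h it was -0.40 with an adjusted p of 0.202, and at 72 h -0.77 ± 0.20 (SE) with an adjusted p of 0.022, which is under 2-fold. The slide block gave -0.45 at 72 h, with an adjusted p of 0.489.

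The probes of Fcgbp differed at 3 h. The second probe, which the array assigns to another transcript of the gene, was at 0.03, -0.35 and 0.04 in sham and at -0.85, -1.22 and -1.30 at 3 h, without overlap. It fell by 1.03 ± 0.28 (SE) on the log2 scale, with an adjusted p of 0.0276, while the leading probe was 0.05 above sham. This fall was not called after quantile normalization, after the other background correction or with the replicate block. It was also not called without sham replicate 1, sham replicate 3, 3 h replicate 2 or 3 h replicate 3. At 12 and 72 h the second probe overlapped sham, at -0.38 and -0.49.

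Zg16, a lectin of the granule that binds bacterial cell walls, was at 8.62, 8.48 and 8.63 in sham and at 8.99, 8.83 and 8.94 at 3 h. The 12 h arrays read 8.51, 8.68 and 8.35, and the 72 h arrays 7.41, 7.98 and 7.92. The 3 h arrays were above all others and the 72 h arrays below all others. The log2 fold changes were 0.34, -0.07 and -0.81, and the 72 h value, 1.75-fold lower, had an adjusted p of 0.00592 but was not called. Between 12 and 72 h it was -0.74, with an adjusted p of 0.0102. With the slide as a block the 72 h value against sham was -0.56, with an adjusted p of 0.295, and the 12 h value was 0.02.

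Spink4, a Kazal-type protease inhibitor peptide found in goblet cells, was at 7.41, 7.47 and 7.61 in sham, at 7.98, 7.87 and 7.82 at 3 h, at 7.56, 7.77 and 7.49 at 12 h and at 7.60, 8.06 and 7.75 at 72 h. Its 3 h arrays all lay above the sham arrays. The log2 fold changes of 0.39 ± 0.14 (SE), 0.11 ± 0.14 and 0.31 ± 0.14 had adjusted p of 0.0744, 0.679 and 0.153, and the interval at 3 h ran from 0.09 to 0.70.

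Spdef, the transcription factor that drives goblet cell maturation, was at 3.37, 3.51 and 3.55 in sham and at 4.77, 4.69 and 4.50 at 3 h. It was at 3.89, 4.08 and 3.58 at 12 h and at 4.08, 4.63 and 4.49 at 72 h. All later arrays lay above all sham arrays, and the 3 h arrays lay above the 12 h arrays. At 3 h Spdef rose by 1.17 ± 0.17 (SE) on the log2 scale, which is 2.26-fold, with an adjusted p of 0.00138. After quantile normalization this was 0.94, which is under 2-fold.

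At 12 h Spdef was 0.37 above sham, with an adjusted p of 0.159. At 72 h it was 0.92 above sham, with an adjusted p of 0.00447, under 2-fold. The slide block gave 1.32 at 72 h, with an adjusted p of 0.0392, past both thresholds. The differences between times were -0.80 from 3 to 12 h and 0.55 from 12 to 72 h, with adjusted p of 0.0191 and 0.0498, and both were under 2-fold.

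**Figure D2:**
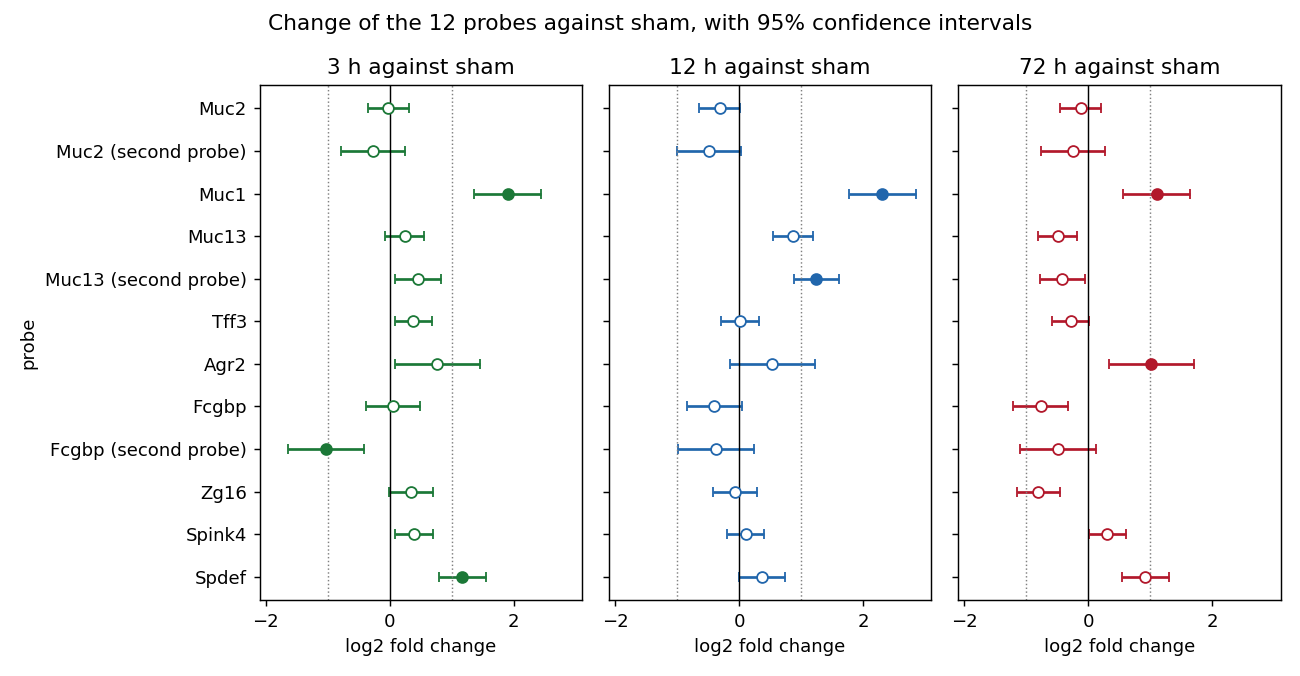
Log2 fold change against sham (x axis) of each of the 12 probes (y axis) at 3, 12 and 72 h, with 95% confidence intervals from the limma fit; filled points were called, and dotted lines mark a 2-fold change. Muc1 is filled at all times, at 1.90, 2.31 and 1.10, and the intervals of both Muc2 probes include 0 at all times.

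With the slide as a block, Muc1 and Agr2 were no longer called at 72 h, and the only member probe called was that of Spdef. The slide block estimates the slide from the 12 h group alone, and its standard errors for 72 h against sham were accordingly wider, for Muc1 0.42 against 0.24.

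Some members moved together between arrays of the same group and others did not. Over the 36 pairs of leading probes, Pearson's r after the group means were taken off ran from -0.622 to 0.932, with a median of 0.543, and it was above 0 in 29 pairs. It was below 0 for Muc1 with 6 of the 8 other genes. The 4 pairs with the highest r over all 12 arrays had r of 0.922 for Spdef and Spink4, 0.921 for Tff3 and Zg16, 0.876 for Fcgbp and Zg16 and 0.862 for Fcgbp and Tff3. After the group means were taken off, r was 0.883, 0.857, 0.743 and 0.932 for these pairs, while it was 0.02 for Muc13 and Muc2 and -0.04 for Agr2 and Fcgbp. For Muc1 and Muc2 r was -0.556 over all arrays and -0.622 within groups. The points share arrays and their scaling, and these values are descriptions.

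Arrays of the 72 h group differed from one another in the same direction for most of the genes. On 72 h replicate 1, 0 of the 9 genes were above their group mean, with a median deviation of -0.29. On 72 h replicate 2, 8 of the 9 were above it, with a median deviation of 0.22, and Muc1 was the exception. On 12 h replicate 2 the count was also 8, again without Muc1. The share of all genes above their group mean on each array was not counted beside these. In the authors' table of log2 values the median over the array was -0.179, -0.055 and -0.137 for 72 h replicates 1, 2 and 3. The part of such an array-wide shift in the deviations of the members was not tested.

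**Figure D3:**
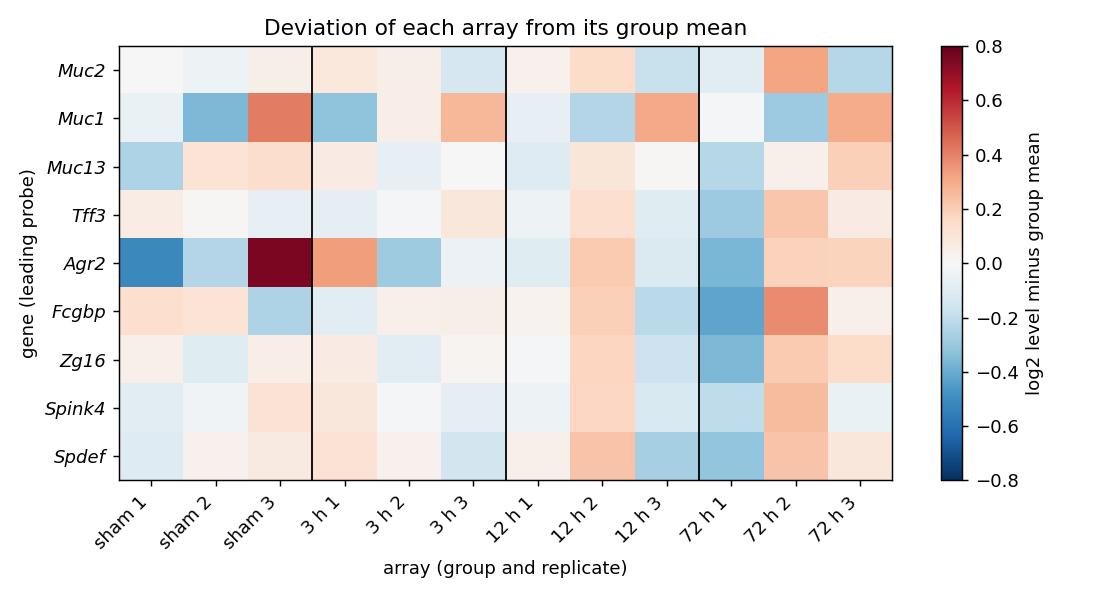
Log2 level minus the group mean (colour, blue below and red above) for the leading probe of each gene (rows) on each array (columns, by group and replicate). The column of 72 h replicate 1 is blue for all genes, with a median of -0.29, and that of 72 h replicate 2 is red for 8 of 9, with a median of 0.22.

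The genes whose levels followed the leading Muc2 probe most closely, among 15813 genes above background on all arrays, were Pyy with r of 0.872, 1500011B03Rik with 0.871, Caln1 with 0.827, Wwp1 with 0.816 and Tesc with 0.81, over 12 arrays. Pyy encodes a peptide hormone of enteroendocrine cells. Members themselves were left out of this ranking. It takes the highest of many correlations over few arrays that share their scaling, and it was not tested.

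Other epithelial genes were measured beside the members, since the tissue also holds other cell types. Among 10 markers of the epithelium, 1 rose at 3 h, Krt18 by 1.17, and 0 fell, and at 12 and 72 h none was called. Their median log2 fold change was 0.49, 0.23 and -0.46, and at 72 h it ranged from -0.86 to -0.29 over the list. Summed over the list on the linear scale, relative to the 75th percentile, their level was 1572 to 1765 in sham, 2258 to 2425 at 3 h, 1774 to 2092 at 12 h and 968 to 1323 at 72 h. The sum was thus above all sham arrays at 3 h and below them at 72 h, as Zg16 and Tff3 were. Its part in the levels of the members was not tested. In whole tissue, fewer cells of a type and less RNA per cell cannot be told apart.

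Markers of absorptive colonocytes, the neighbours of goblet cells on the surface, were lower at 72 h. Of 8 such markers, 0 were called at 3 h, 3 fell at 12 h and 6 fell at 72 h, where the water channel gene Aqp8 fell by 2.95 and the median was -1.61. Their summed level was 1316 to 1537 in sham and 472 to 685 at 72 h. The median of the 9 members at 72 h was -0.12, and the difference between the lists was not tested. Of 6 enteroendocrine markers 0 were called at any of the 3 times, with a median of -0.15 at 72 h.

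Markers of cells outside the epithelium moved too. Of 6 smooth muscle markers 0 were called at 3 h, 6 fell at 12 h and 5 fell at 72 h, with medians of -0.76, -1.43 and -1.51. Of 6 fibroblast markers 4 fell at 12 h and 5 rose at 72 h, and of 6 macrophage markers 6 rose at 72 h, with a median of 1.85. Of 8 neutrophil markers 6, 7 and 5 rose at 3, 12 and 72 h. The part of these in the scaled levels of the members was not tested.

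**Figure D4:**
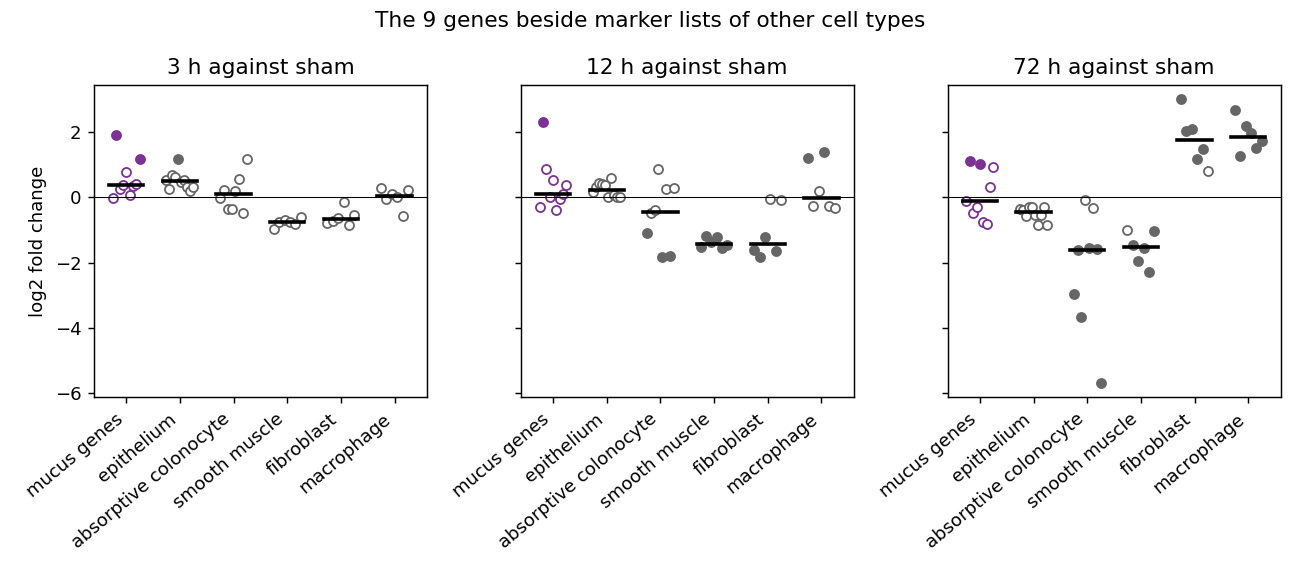
Log2 fold change against sham (y axis) of the 9 members and of the marker genes of 5 other cell types (x axis) at 3, 12 and 72 h; filled points were called and bars are medians. At 72 h the median is -0.12 for the members, -0.46 for epithelium and -1.61 for absorptive colonocytes.

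Genes of mucus biology beyond the members were read from 7 lists. Of all 37074 genes, 2732, 3360 and 3282 were called by the leading probe at 3, 12 and 72 h. Of the 107 listed genes on the array, 10 rose and 2 fell at 3 h. At 12 h 14 of the listed genes rose and 4 fell, and at 72 h 9 rose and 9 fell. With the slide as a block, 11 of the 12, 16 of the 18 and 6 of the 18 were also called. The calls lost were Muc5b at 3 h, Tff2 and Cftr at 12 h, and 12 genes at 72 h. Those called at 72 h in both fits were Sval1, Creb3l1, Galnt2, St3gal4, Papss2 and Il33.

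Regulators of the secretory fate were mostly below the thresholds. Of 17, 2 rose at 3 h, 1 at 12 h and 1 at 72 h, and 1 fell at 72 h, with medians of 0.13, -0.12 and -0.08. Dll1, the Notch ligand that secretory precursors show to their neighbours, rose by 2.15 at 3 h and by 1.16 at 12 h. Sox9, a transcription factor of the crypt base, rose by 1.06 at 3 h and was at -0.08 at 12 h. Creb3l1, a membrane-bound transcription factor of secretory cells, rose by 1.27 at 72 h, and Cdx2, a factor of intestinal identity, fell by 1.01. With the slide as a block Cdx2 was at -0.55 at 72 h, with an adjusted p of 0.397, and its call was lost. Atoh1, the factor that sets the secretory fate, was at 0.13, -0.17 and 0.05 and was not called.

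Genes for building, capping and sulfating the O-linked sugars of mucins were read next. Of 29 on the array, 3 rose and 0 fell at 3 h, 4 rose and 1 fell at 12 h, and 2 rose and 3 fell at 72 h, with medians of 0.39, 0.07 and -0.00. Galnt3, which adds the first sugar, rose by 1.56 and 1.72 at 3 and 12 h and was at 0.61 at 72 h. C1galt1, which extends it to core 1, rose by 1.07 and 1.18 and was at 0.54 at 72 h. Fut2, which adds terminal fucose, rose by 1.38 and 2.12 and was then at -0.77, and between 12 and 72 h it fell by 2.89.

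St3gal4, which adds sialic acid, rose by 2.22 at 12 h and 2.68 at 72 h. Galnt2, another starter enzyme, rose by 1.19 at 72 h. Papss2, which makes the sulfate donor, fell by 1.34 at 12 h and 1.51 at 72 h, the sulfate transporter gene Slc26a2 fell by 1.24 at 72 h, and the sulfotransferase gene Gal3st2 fell by 1.16. With the slide as a block, the 72 h values were -1.24 for Papss2, with an adjusted p of 0.042, -0.86 for Slc26a2, with an adjusted p of 0.183, and -0.77 for Gal3st2, with an adjusted p of 0.17, so the calls of Slc26a2 and Gal3st2 were lost. The sulfotransferase gene Chst4 was at 0.83 at 12 h and -0.12 at 72 h and was not called, and with the slide as a block it was called at 12 h, at 1.03 with an adjusted p of 0.00125. Chst5, another sulfotransferase gene, was well above background on 0 arrays.

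In the list of mucin folding and granule release, 18 genes were measured. At 3 h 1 rose and 1 fell, at 12 h 4 rose and 1 fell, and at 72 h 0 rose and 1 fell. Hspa5, the main chaperone of the endoplasmic reticulum, rose by 1.05 at 3 h and 1.66 at 12 h. At 12 h it was joined by Manf at 1.87, Creld2 at 1.73 and Sdf2l1 at 1.33, which are all induced when the endoplasmic reticulum is under stress. All 4 were lower at 72 h than at 12 h, by 1.02 to 1.32 on the log2 scale, and all 4 differences were called. These genes act in every secreting cell, not in goblet cells alone. Agr2, the member with a role in folding, was at 0.54 at 12 h and not called.

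Scin, which cuts actin filaments during secretion, fell by 1.17 at 12 h and 1.57 at 72 h. With the slide as a block its 72 h value was -1.08, with an adjusted p of 0.194, and that call was lost. Nlrp6, an inflammasome gene with a role in granule release, fell by 1.15 at 3 h. Of 6 genes of mucus release and hydration, 0 were called at 3 h and 1 fell at 12 and at 72 h. This was Cftr, the chloride and bicarbonate channel that lets the gel unfold, which fell by 1.08 and 1.23. The slide block put Cftr at -0.91 and -0.73, with adjusted p of 0.0177 and 0.282, and neither was called.

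**Figure D5:**
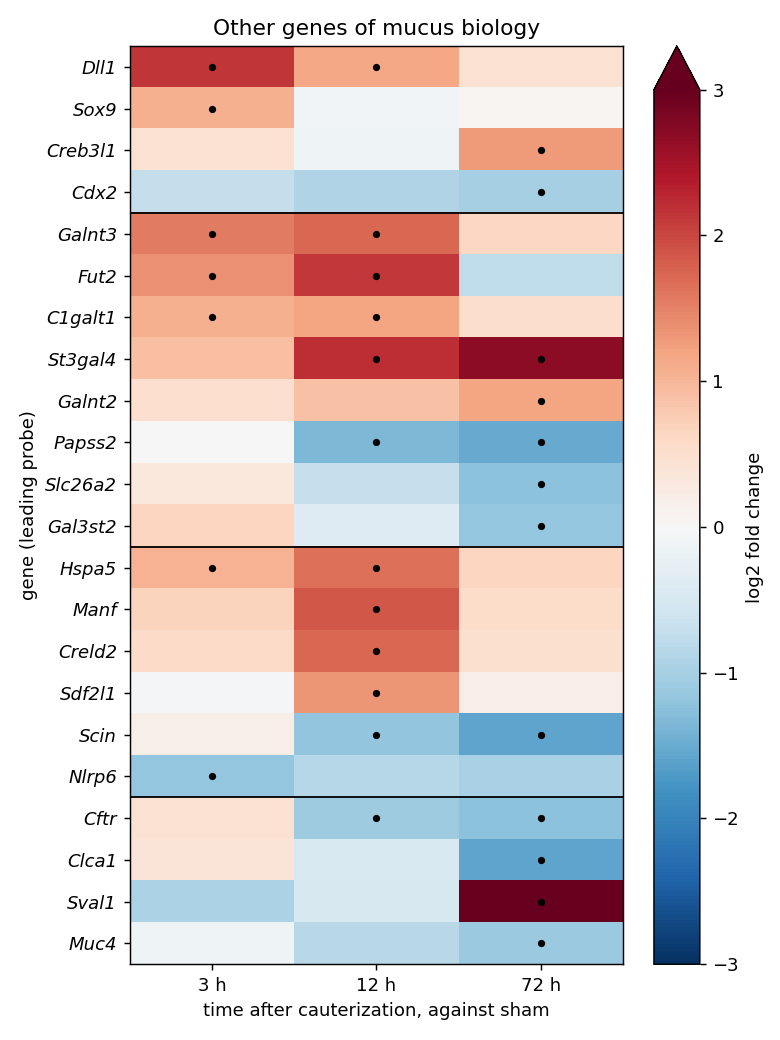
Log2 fold change against sham (colour, red higher and blue lower, capped at 3) of called genes from the lists of fate regulators, glycosylation and sulfation, folding and granule release, and other products (blocks from top to bottom) at 3, 12 and 72 h; dots mark called values. Fut2 is dark red at 12 h, at 2.12, and Sval1 at 72 h, at 4.34, which lies beyond the colour scale.

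Other goblet cell products differed from one another. Of 13, 0 were called at 3 h, 1 rose and 1 fell at 12 h, and 3 rose and 2 fell at 72 h. Sval1 was at -3.36, -2.18 and -3.42 in sham and at 0.65, 1.68 and 1.72 at 72 h. Its arrays did not overlap, and it rose by 4.34 ± 0.47 (SE), and by 4.98 with the slide as a block. Clca1, a protease of the mucus gel, fell by 1.59 ± 0.22 at 72 h. With the slide as a block the Clca1 value was -0.999, with an adjusted p of 0.155, and the call was lost.

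The other called products were near background. Agr3 and the trefoil gene Tff2 were well above background on 0 sham arrays and on all 3 arrays of 72 h, where they were at least 2.90-fold and at least 1.87-fold higher, with adjusted p of 0.00891 and 0.0207. These bounds set the mean of the bright group against the lowest signal that was well above background on each array of the other. Tff2 was at least 1.50-fold higher at 12 h, where 2 of 3 arrays measured it, with an adjusted p of 0.0444, and this call was lost with the slide as a block, with an adjusted p of 0.101. Tff1 was at least 1.33-fold lower at 72 h, with an adjusted p of 0.0107, and was above background on 0 arrays there and on 2 of 3 in sham. With the slide as a block the 72 h calls of Agr3, Tff2 and Tff1 were lost, with adjusted p of 0.417, 0.314 and 0.27. The 12 h call of Agr3 came from values that were not well above background in either group, and no fold is given.

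Among 8 other mucins on the array, 1 fell at 3 h, 0 were called at 12 h and 1 fell at 72 h. The gel-forming mucin gene Muc5b was above background on 0 arrays of 3 h and on all 3 of sham, and was at least 1.21-fold lower at 3 h, with an adjusted p of 0.0481. The slide block gave an adjusted p of 0.0564, and the call was lost. The membrane mucin gene Muc4 fell by 1.12 at 72 h. With the slide as a block it was at -0.64, with an adjusted p of 0.218, and this call was lost too.

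Of 16 cytokines and receptors that are known to act on goblet cells, 4 rose at 3 h, 4 at 12 h and 3 at 72 h, and 0 fell. Il22, the cytokine of innate lymphoid cells that acts on epithelium, was at -6.62, -5.06 and -2.76 in sham, at 1.10, 3.01 and 3.26 at 3 h and at 0.64, -0.29 and 0.47 at 12 h. In sham it was well above background on 1 of 3 arrays, and the fitted differences were 7.27 ± 1.06 (SE) and 5.09 ± 1.06. At 72 h it was at -2.28, -4.08 and -5.76 and overlapped sham.

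Areg, a ligand of the epidermal growth factor receptor, rose by 3.49 at 3 h and 1.87 at 12 h and was at -0.11 at 72 h. Il33 rose by 3.23, 3.60 and 3.43 at the 3 times, and Il4ra, the receptor chain shared by IL-4 and IL-13, rose by 1.55, 1.99 and 2.11. Il13ra2, the decoy receptor for IL-13, rose by 1.33 at 72 h. With the slide as a block the 72 h values were 2.14 for Il4ra and 1.10 for Il13ra2. Their adjusted p was 0.0746 and 0.274, and both calls were lost.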

How the data were processed

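RNA of 12 mouse ceca was hybridised by the study to one-colour Agilent arrays with 60-base probes. The authors deposited scanner files, from which the processed signal intensity was taken, background-corrected by the scanner software, and a table of log2 values that the authors scaled to each array's 75th percentile. Here spots flagged as outliers and 3671 control spots were left out, spots of a probe were averaged, and log2 intensity minus the array's 75th percentile was taken; it correlated with the authors' table at r of at least 0.99996. The number of arrays limits the precision.

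Groups came from the sample labels. All 12 arrays entered 1 limma fit (version 3.58.1, R 4.3.3; lmFit, eBayes) with Benjamini-Hochberg adjustment over 56605 probes; calls needed over 2-fold and an adjusted p under 0.05, the thresholds of the study's methods. The steps were tested on simulated data. Named were all 9 members, called genes of each list (up to 5 a direction), up to 3 genes of a marker list and the 5 genes most correlated with Muc2. The members and lists were chosen with earlier results of these data known. Alternatives were quantile normalization, other backgrounds and filters, blocks, the paired t-test that the methods name for the study in general, 2-group fits and leaving out each array.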

Additional observations from a re-analysis of the deposited data

Results flagged for a closer look

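For 2 of the 9 genes the level differed between 72 h and 12 h after cauterization by the test of that difference in limma. The sham group was taken at 0 h only, so time after the operation and time after the burn are not separated. For Muc1 the log2 difference of 72 h minus 12 h was -1.21. Muc13 was -1.36 by the leading probe and -1.67 by the second probe. In all 3 the arrays of the times did not overlap. The 72 h group was on slide 2 with 1 of the 12 h arrays, and with the slide as a block the differences were -1.51, -1.37 and -1.62. After the normexp background correction the Muc1 difference was -0.50, under 2-fold and not called, while both Muc13 probes were called. No explanation was tested.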

How the results depend on the processing

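Of 754 pairs of a gene's difference and an alternative (29 differences, 26 alternatives), 703 kept direction and call, 27 lost a call, 11 gained one and 13 turned sign. The main count was 3 called member probes at 3 h, 2 at 12 h and 2 at 72 h against sham, 0 for 12 h against 3 h and 3 for 72 h against 12 h. Quantile normalization gave 1 at 3 h and 1 for 12 h against 3 h. The normexp background correction gave 1 at 3 h, 1 at 12 h and 2 for 72 h against 12 h, without Muc1. Of all probes, normexp called 1010 at 3 h and 1640 at 12 h against sham, where the main fit called 4148 and 5059. The methods' t-test, which they name for pairs of groups in general and not for the arrays, was run paired by replicate number, a pairing chosen here, and gave 3, 2, 1, 0 and 3 at an unadjusted p under 0.05 and 0 in all 5 comparisons after Benjamini-Hochberg adjustment, when 0, 0, 0, 1 and 0 of all probes passed. At 72 h the count was 1 with the slide as a block, 1 with the replicate block and 1 with only the 2 groups compared. The replicate block gave 2, 2, 1, 0 and 3, without Fcgbp at 3 h and Agr2 at 72 h. Between groups, the deviations of same-numbered arrays correlated at -0.16 to 0.087 and those of differently numbered arrays at -0.11 to 0.14. No deviation shared by number was thus seen, which cannot tell whether the mice were handled in pairs. With no fold threshold there were 6 at 72 h, 3 for 12 h against 3 h and 5 for 72 h against 12 h. Far more of all 56605 probes passed then too, 10467 at 3 h and 11815 at 12 h against sham. Leaving out each array gave 2 to 3, 2 to 2, 0 to 3, 0 to 0 and 3 to 3, with 0 at 72 h without sham replicate 2 or 72 h replicate 3. Listed genes called at 72 h were 6 with the slide as a block and 18 without. The cause of these differences was not tested.

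Signs turned only where the difference was not called, except for Muc1 at 72 h. Its 1.10 became -0.0016 after normexp, which adds an offset to the signal. The median log2 fold change of all probes at 72 h against sham was -0.222 after normexp and -0.147 in the main fit. The parts of the offset and of this shift in the Muc1 value were not tested. Fcgbp at 3 h became -0.22 (quantile), -0.061 (75th percentile over probes above background) and -0.49 (mean of both probes). Muc2 at 72 h became 0.14 (quantile) and 0.14 (slide block), Tff3 at 12 h -0.045 (75th percentile over probes above background) and Zg16 at 12 h 0.016 (slide block). Leaving out each array gave -0.066 to 0.041 for Muc2 and -0.068 to 0.12 for Fcgbp at 3 h, and -0.056 to 0.060 for Tff3 and -0.15 to 0.016 for Zg16 at 12 h. Signal over background limits Muc1, Agr3, Tff1, Tff2, Muc5b and Il22.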
